A study of Mus musculus with 12 samples.

Results

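H3K27me3-only promoter regions were profiled by CUT&RUN in mesenchymal stem cells (MSCs) of young and old mice. They were chosen from the 28047 regions of the H3K27me3 table as those on autosomes that were longer than 1.5 kb and shorter than 100 kb, that overlapped a window of 1 kb each side of the transcription start site (TSS) of a GENCODE protein-coding gene (mm10), and that shared no base with any of the 31617 regions of the H3K27ac table. Of 5928 H3K27me3 regions over a promoter window, 132 were not autosomal, 39 were too short, 621 were too long and 1664 shared bases with an H3K27ac region. The remaining 3472 regions, 12.4% of all H3K27me3 regions, are described here. The young group held cells of mice aged 3 to 5 months and the old group cells of mice aged 18 to 22 months, both cultured only at 2% oxygen in the same medium, with no genotype or treatment given in the labels. Cells of each sample were divided between an H3K27me3 and an H3K27ac antibody tube, and each mark and age had 3 libraries. The labels do not say whether these came from separate animals or cultures, so the p-values below measure the spread between these libraries, which may be technical.

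Trimethylation of lysine 27 of histone H3 (H3K27me3) is written by the Polycomb repressive complex PRC2 through its EZH2 or EZH1 subunit and is read by complexes of the PRC1 type, and it accompanies repression of genes of other lineages. Acetylation of the same lysine (H3K27ac), placed by p300 and CBP, marks active promoters and enhancers, and the same residue cannot carry both at once. In mammals, Polycomb complexes are recruited mainly to CpG islands, stretches of DNA that keep many CpG dinucleotides. A bulk profile averages over cells, so fewer cells with the mark and less of the mark per cell cannot be told apart.

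The values were whole multiples of the signal of 1 read, so reads could be counted. The H3K27me3 libraries held 3622108 (old 2) to 9947515 (young 1) reads, and the median promoter region described here held 77 reads in old 2 and 223 reads in young 1 and young 2. Levels are given as read density, the RPKM computed here over the own length of each region. Of all reads, 62.3% to 66.6% lay in H3K27me3 regions in the young libraries and 60.8%, 59.6% and 53.8% in old 1, old 2 and old 3. The labelled cell type could be set only against the marks over its promoters. Of 24 MSC marker genes, 17 lay under H3K27ac regions alone, 6 in promoter regions with both marks and 1, Nes (nestin, an intermediate filament protein), in an H3K27me3-only region.

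The regions were broad and mostly held a single gene. Their median length was 22.5 kb, with quartiles of 10.0 and 42.5 kb, and they covered 102 Mb in all. A single protein-coding gene had its TSS window in 2968 of them (85.5%), and the largest number of genes in a region was 10. They held 3999 of 20720 autosomal protein-coding genes (19.3%), of which 500 (12.5%) had an H3K27ac region over another of their TSSs. Although no base was shared with H3K27ac, the nearest H3K27ac region lay at a median distance of 9.0 kb, and 1388 regions (40.0%) had one within 5 kb. The depositors called 3462 of the regions in both ages, 10 in young cells alone and 0 in old cells alone, as the region names give it. Region ends lay on a grid of 0.5 kb. The 18 regions just inside the lower limit, of 2.0 kb, had a median density of 0.759, and the densest was Frg1 at 0.899. The 8 promoter regions just outside it, of 1.5 kb, had a median density of 0.696, and the densest was Gls2 at 1.02. Just inside the upper limit, 7 regions of 99.5 kb had a median density of 1.20, with the region of Man2b2 and Ppp2r2c highest at 1.73. Just outside, 3 regions of 100.0 kb had a median density of 1.03, and the densest, at 1.47, held Hand2, a regulator of heart and limb development.

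The promoters in these regions were of mixed CpG content. Each region was classed by the richest 0.5 kb stretch within 1 kb of its TSSs, as CpG-rich (a GC content of at least 55% and an observed to expected CpG ratio of at least 0.75), CpG-poor (no stretch with a ratio of 0.48 or more) or intermediate. CpG-rich regions numbered 1341 (38.6%), intermediate ones 935 (26.9%) and CpG-poor ones 1196 (34.4%). Of the genes in them, 38.2% were CpG-rich, against 52.1% of all autosomal genes and 56.2% of genes in promoter regions with both marks. Put the other way, H3K27me3-only regions held 14.2% of all CpG-rich genes, 27% of intermediate and 23.6% of CpG-poor genes. The next counts use the 300 bases around the 5′-most TSS of each gene, which need not lie in the region. In these bases the median gene held 8 CpGs here, 15 in regions with both marks and 13 over all genes. The TATA box letters TATAAA, searched on both strands of the same 300 bases, stood there in 12.9% of the genes of these regions and 12.6% of all. CGCGCG, which overlaps CpG content itself, stood there in 11.9% and 15.0%.

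The 200 bases upstream of a TSS are printed for 8 genes. They show how far the CpG content differs between regions that all carry H3K27me3 without H3K27ac. For each gene the 5′-most TSS inside its region was taken, which need not be the main or first TSS of the gene, as for Eya2. The sequences are from the GRCm38 (mm10) reference of RefSeq at GENCODE TSSs, 5′ to 3′ on the strand of the gene. They overlap no annotated exon and have each CpG in capitals. The first 4 belong to CpG-rich regions: Pou4f1 (a POU-homeodomain regulator of sensory neurons, 37 CpGs) is among the densest, and the signal over Isl1 (a LIM-homeodomain regulator of motor neurons and heart, 27 CpGs), Cdh4 (R-cadherin, 22 CpGs) and Irx2 (an Iroquois homeodomain factor, 15 CpGs) was lower in old cells.
Pou4f1, chr14:104468000-104468199, minus strand: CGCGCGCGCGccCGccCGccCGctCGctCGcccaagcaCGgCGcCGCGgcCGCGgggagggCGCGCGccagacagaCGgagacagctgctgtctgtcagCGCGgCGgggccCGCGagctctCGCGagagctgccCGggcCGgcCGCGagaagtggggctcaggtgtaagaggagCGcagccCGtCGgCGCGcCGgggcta
Isl1, chr13:116309690-116309889, minus strand: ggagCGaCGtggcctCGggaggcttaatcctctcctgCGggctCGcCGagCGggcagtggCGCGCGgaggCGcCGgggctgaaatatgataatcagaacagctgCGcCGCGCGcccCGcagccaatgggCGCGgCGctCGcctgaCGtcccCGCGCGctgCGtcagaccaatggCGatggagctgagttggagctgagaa
Cdh4, chr2:179442231-179442430, plus strand: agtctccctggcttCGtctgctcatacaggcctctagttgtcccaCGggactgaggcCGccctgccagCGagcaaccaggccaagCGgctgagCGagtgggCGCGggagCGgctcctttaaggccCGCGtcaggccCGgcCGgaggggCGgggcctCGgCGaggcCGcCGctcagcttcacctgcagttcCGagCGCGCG
Irx2, chr13:72628620-72628819, plus strand: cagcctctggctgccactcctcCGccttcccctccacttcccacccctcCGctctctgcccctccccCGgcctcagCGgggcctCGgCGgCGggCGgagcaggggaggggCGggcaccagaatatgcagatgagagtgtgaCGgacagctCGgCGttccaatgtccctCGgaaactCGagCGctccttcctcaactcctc
The next belongs to an intermediate region, that of Sstr1 (somatostatin receptor 1, 9 CpGs), which had the smallest adjusted p among those lower in old cells.
Sstr1, chr12:58211572-58211771, plus strand: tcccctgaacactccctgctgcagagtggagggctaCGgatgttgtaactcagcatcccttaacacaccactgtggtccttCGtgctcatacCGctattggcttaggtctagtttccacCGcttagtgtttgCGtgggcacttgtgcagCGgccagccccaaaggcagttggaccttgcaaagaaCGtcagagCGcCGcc
The last 3 belong to CpG-poor regions: Ccdc183 (1 CpG) is the densest of that class, Eya2 (a phosphatase and transcription cofactor, 1 CpG) is the single one of that class called in the age comparison, and Olfr1412 (2 CpGs) is an olfactory receptor gene.
Ccdc183, chr2:25617679-25617878, minus strand: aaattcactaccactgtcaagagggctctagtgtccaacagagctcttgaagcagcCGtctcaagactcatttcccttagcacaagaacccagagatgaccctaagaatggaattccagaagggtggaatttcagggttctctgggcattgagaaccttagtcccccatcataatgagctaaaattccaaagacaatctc
Eya2, chr2:165655098-165655297, plus strand: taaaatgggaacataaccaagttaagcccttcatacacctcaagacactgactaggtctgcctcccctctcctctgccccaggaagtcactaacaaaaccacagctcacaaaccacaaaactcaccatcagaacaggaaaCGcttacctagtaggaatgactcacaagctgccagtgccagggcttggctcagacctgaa
Olfr1412, chr1:92585579-92585778, plus strand: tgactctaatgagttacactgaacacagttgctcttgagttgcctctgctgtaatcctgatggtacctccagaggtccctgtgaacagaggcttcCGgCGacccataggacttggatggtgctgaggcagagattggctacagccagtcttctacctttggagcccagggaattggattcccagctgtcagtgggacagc

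Many lineage regulators and genes of excitable cells lay in these regions, and few MSC markers or ribosomal protein genes did. Against 19.3% of all autosomal genes, H3K27me3-only promoter regions held 48 of 62 voltage-gated ion channel genes (77.4%), which carry sodium, calcium and potassium currents in nerve and muscle, and 54 of 94 neurotransmitter receptor genes (57.4%). They held 24 of 47 basic helix-loop-helix lineage regulators (51.1%), among them Myod1 and Myf5 of muscle, Neurog2 of neurons and Tal1 of blood. They also held 20 of 40 skeletal and cardiac muscle genes (50.0%), 16 of 32 epithelial genes (50.0%), 15 of 33 cadherins and unclustered protocadherins (45.5%), 17 of 39 blood and endothelial genes (43.6%) and 13 of 32 liver, pancreas and gut genes (40.6%). The share was lower for homeobox regulators other than Hox, with 48 of 128 (37.5%), for Sox, Gata, Fox, T-box and Zic regulators, with 24 of 83 (28.9%), and for Wnt, Bmp, Gdf and Fgf ligands, with 15 of 59 (25.4%). Those 3 lists had a further 47, 21 and 19 genes in H3K27me3 regions outside the length limits.

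No Hox gene of 39 lay in these regions: 21 lay in H3K27me3 regions outside the length limits, 5 in promoter regions with both marks and 12 under H3K27ac alone. Of 1086 olfactory receptor genes, 121 (11.1%) were held and 938 had neither mark over a TSS. Of 75 cytosolic ribosomal protein genes, 66 lay under H3K27ac alone and 5 (6.67%) in these regions, namely Rpl17, Rpl38, Rpl3l, Rps26 and Rps3. Rpl3l is the muscle-specific paralog of Rpl3, and the region of Rpl17 also holds Lipg, endothelial lipase. These shares are counts over 15 lists that were put together with earlier results known, and they carry no test. Since the rule left out regions sharing a base with H3K27ac, promoters under H3K27ac were largely kept out by the selection itself. H3K27ac alone lay over 70.8% of MSC markers and 88.0% of ribosomal protein genes, against 45.8% of all autosomal genes.

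**Figure D1:**
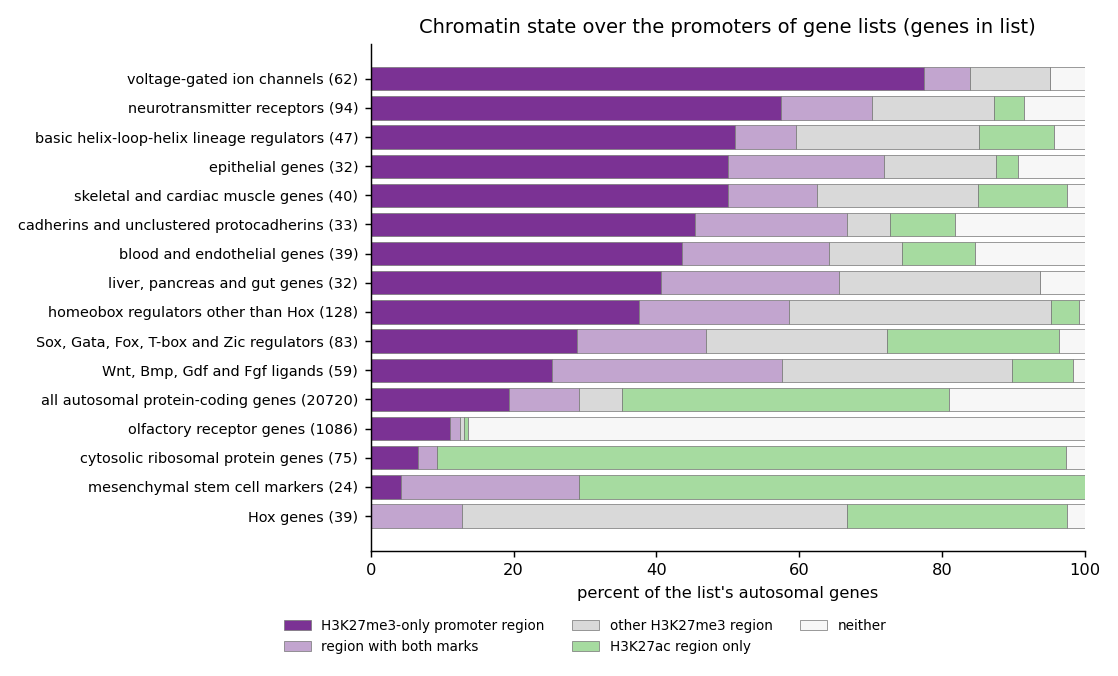
For each gene list (number of autosomal genes in parentheses), the bars give the percent of genes whose promoter windows lay in an H3K27me3-only promoter region, a promoter region with both marks, another H3K27me3 region, an H3K27ac region only, or neither. Voltage-gated ion channels stand at the top with 77.4%, all autosomal protein-coding genes at 19.3%, and Hox genes at 0.

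H3K27me3-only promoter regions were as dense as promoter regions with both marks and denser than H3K27me3-only regions elsewhere. Their median density was 1.01, 1.05 and 1.05 in young 1, young 2 and young 3 and 0.959, 0.961 and 0.867 in old 1, old 2 and old 3. In each library the median log2 density of these regions was compared with that of another class, as an excess. The excess over the 4889 regions inside genes was 0.32 to 0.50 and that over the 13125 intergenic regions 0.28 to 0.46, both above 0 in 6 of 6 libraries (two-sided exact sign-flip permutation test over 6 libraries, p = 0.031, the smallest it can give; adjusted over 4 such tests, p = 0.042). The excess over promoter regions with both marks was 0.00 ± 0.03 (SD, n = 6) and above 0 in 2 of 6 libraries (exact sign-flip permutation p = 0.94). Regions inside genes and intergenic regions were also shorter, with median lengths of 8.5 and 9.0 kb, and density rose with length. The part of length in the excess was not tested. The sign-flip test pools young and old libraries over the same regions. Its p therefore measures only how steady the sign was between these libraries.

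Over the 3472 regions, mean density over the 6 libraries ran from 0.472 to 3.31, with quartiles of 0.766 and 1.26. Density rose with the CpG count of the richest promoter (Spearman rho 0.41), with length (0.38), and with GC content of the region (0.31), while its rho with distance to H3K27ac was −0.11. These are descriptions across regions of the same libraries, which share depth and base composition. CpG-rich regions had a median density of 1.27 ± 0.04 in young and 1.07 ± 0.09 in old cells, intermediate ones 1.02 ± 0.02 and 0.898 ± 0.04, and CpG-poor ones 0.848 ± 0.006 and 0.810 ± 0.03 (SD, n = 3 libraries each). The excess of CpG-rich over CpG-poor regions was 0.31 to 0.61 on the log2 scale, above 0 in 6 of 6 libraries (exact sign-flip permutation p = 0.031; adjusted, p = 0.042).

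**Figure D2:**
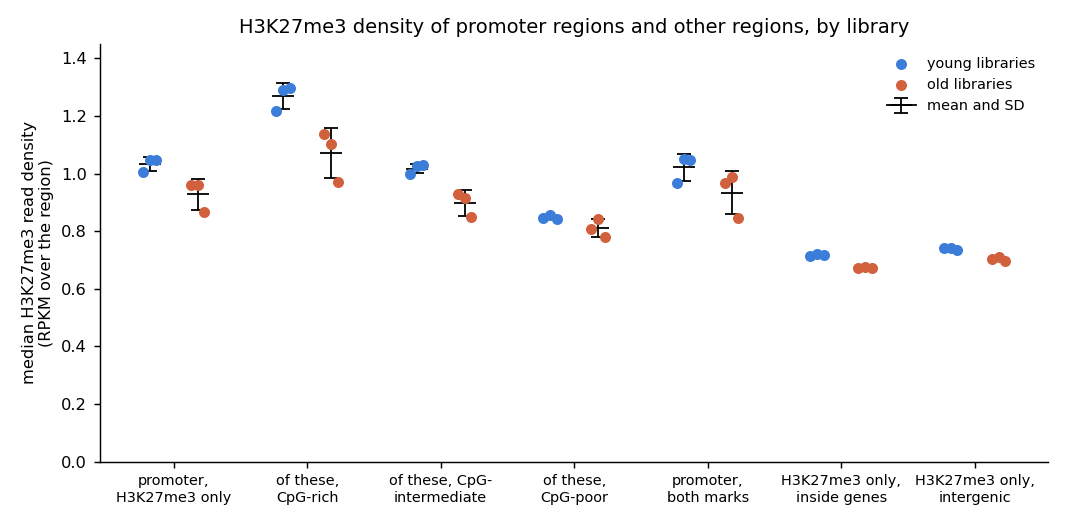
Median H3K27me3 read density (RPKM over the region) of each class of regions in the 3 young and 3 old libraries, with the mean and SD of each group. H3K27me3-only promoter regions sit beside promoter regions with both marks (1.03 and 1.02 in young cells), above regions inside genes (0.719) and intergenic regions (0.739), and the CpG-rich regions among them are highest (1.27).

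The 6 densest regions held Grin2c (an NMDA-type glutamate receptor subunit), Pax6 (a paired-box regulator of eye, brain and pancreas), Gm4881, Neurog2 and Atoh1 (basic helix-loop-helix factors that set neuronal fates) and Pou4f1. Over Grin2c (chr11:115246001-115269000, 23.0 kb), density was 3.44, 3.78 and 3.74 in young 1 to young 3 and 3.22, 3.49 and 2.15 in old 1 to old 3. Over Pax6 (chr2:105646001-105695000, 49 kb) it was 3.20, 3.84 and 4.14 in young and 3.14, 2.87 and 1.87 in old libraries. Over Grin2c the groups overlapped. Over Pax6 the lowest young library lay just above the highest old one before scaling, and the groups overlapped after scaling. In both regions old 3 was lowest. Over Atoh1 (chr6:64725501-64738000, 12.5 kb), density was 3.22, 3.10 and 3.46 in young and 2.61, 2.21 and 1.63 in old libraries. The groups did not overlap over Atoh1, Neurog2 and Pou4f1, but none of the 6 passed the limma test between ages. The smallest adjusted p was 0.074 for Atoh1, which passed with edgeR (adjusted p = 0.034) and in the values as deposited (0.020).

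Among other lists, the densest were Sox17 (a regulator of endoderm and endothelium, mean density 2.58) and the shared region of Zic1 and Zic4 (cerebellar zinc-finger regulators, 2.53). The region of Kcna7 (a potassium channel), Lhb and Ntf5 stood at 2.33, and Kcnh3 (another potassium channel) at 2.29. Grik3 (a kainate-type glutamate receptor) had a mean density of 2.00, Pcdh8 (a protocadherin) 2.21, Cdh6 (a cadherin) 1.92, the region of Wnt1 and Ddn 2.33, and Fgf12 2.00. For muscle they were Nkx2-5 (the cardiac homeobox factor, 2.26) and Acta1 (skeletal muscle actin, 1.76), for blood Gfi1 (a zinc-finger repressor, 2.12), for liver and pancreas Onecut1 (2.28), and for epithelium St14 (matriptase, 1.61) and the region of Cldn7, Slc2a4 and Ybx2 (1.60). Rpl38 (1.60), the region of Rpl17 and Lipg (1.36), Nes (1.22) and the region of Olfr1410, Olfr1411, Olfr1412 and Olfr1413 (1.86) were densest in theirs. The densest CpG-poor regions held Ccdc183 (2.11), Ccr6 (a chemokine receptor of lymphocytes, 2.06) and Cnfn (cornifelin of the cornified skin layer, 2.02). All of these lay above the median of 0.973 over the 3472 regions. None of them passed the limma test between ages, with adjusted p of 0.080 or more. With edgeR, Sox17 (adjusted p = 0.027), the region of Zic1 and Zic4 (0.043) and Acta1 (0.045) passed, and in the values as deposited so did these 3, Nes, Grik3, Cdh6 and Fgf12 (adjusted p of 0.025 to 0.048).

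Taken over all 3472 regions, H3K27me3 was lower in old than in young libraries, with groups that did not overlap but a design that cannot reach a p of 0.05. The median log2 signal was 5.50, 5.59 and 5.57 in young 1 to young 3 and 5.47, 5.43 and 5.30 in old 1 to old 3, a difference of −0.16 (two-sided exact permutation test, p = 0.10, the smallest that 3 against 3 allows; adjusted over 6 such comparisons, p = 0.20). The share of all reads that lay in the regions was 11.9%, 12.8% and 12.8% in young and 11.5%, 11.3% and 9.84% in old libraries, a mean of 12.5% ± 0.53 against 10.9% ± 0.92 (SD, n = 3; difference −1.61 percentage points, exact permutation p = 0.10; adjusted, p = 0.20). The Wilson 95% interval of these shares was widest in old 2, from 11.3% to 11.4%, and covers counting error only. Old 3 was lowest on both measures and also had the lowest share of reads in all H3K27me3 regions (53.8%). Without it, the difference was −0.11 in log2 signal and −1.08 percentage points in the share. Of the reads in all H3K27me3 regions, these regions took 19.1%, 19.2% and 19.2% in young and 19.0%, 19.0% and 18.3% in old libraries.

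The difference was not shown to be particular to these regions. The excess over promoter regions with both marks was 0.01 ± 0.03 in young and −0.01 ± 0.04 in old libraries, a difference of −0.02 (exact permutation p = 0.50; adjusted, p = 0.50). The excess over regions inside genes went from 0.47 ± 0.03 to 0.41 ± 0.08, a difference of −0.06 (exact permutation p = 0.30; adjusted, p = 0.36), and was −0.02 without old 3. The excess over intergenic regions went from 0.43 ± 0.04 to 0.36 ± 0.07, a difference of −0.08 (exact permutation p = 0.20; adjusted, p = 0.30; SD, n = 3 throughout), and −0.04 without old 3.

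Within the regions, the age difference went with CpG content. The excess of CpG-rich over CpG-poor regions was 0.51, 0.57 and 0.61 in young 1 to young 3 and 0.47, 0.38 and 0.31 in old 1 to old 3, a difference of −0.18 (exact permutation p = 0.10, the smallest possible; adjusted, p = 0.20), or −0.14 without old 3. After scaling of the libraries to each other by relative log expression, the median log2 fold change of old against young was −0.12 in CpG-rich regions (75.5% lower), −0.05 in intermediate regions (62.7% lower) and 0.02 in CpG-poor regions (44.9% lower), and the last was below 0, at −0.10, in the values as deposited. Without old 3 the medians were −0.07 in CpG-rich regions (65.2% lower), −0.02 in intermediate regions (53.7% lower) and 0.03 in CpG-poor regions, and −0.02 in place of −0.05 over all 3472. In promoter regions with both marks, the scaled medians over all libraries ran in the same order. They were −0.05 in CpG-rich, −0.03 in intermediate and −0.01 in CpG-poor regions. Leaving the values as deposited moved the median of all regions from −0.01 to −0.13, and that of the regions described here from −0.05 to −0.17. Density went along with this: in the top quintile of density over all 28047 regions, the median was −0.15 for CpG-rich, −0.09 for intermediate and −0.05 for CpG-poor members of the set, while in the lower quintiles it was −0.01, 0.00 and 0.06. All H3K27me3 regions of the top quintile together had a median of −0.08. GC content of the region went along too, from 0.04 in the lowest to −0.08 in the highest quintile of GC, as over all regions, with 0.05 and −0.07. How far density, GC content or the share of reads in all H3K27me3 regions account for the CpG difference was not tested. That share was lower in every old library (60.8%, 59.6% and 53.8%) than in every young one (62.3%, 66.6% and 66.6%). The excess of CpG-rich over CpG-poor regions rose with it over the libraries. This share and age therefore cannot be told apart here, with or without old 3.

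**Figure D3:**
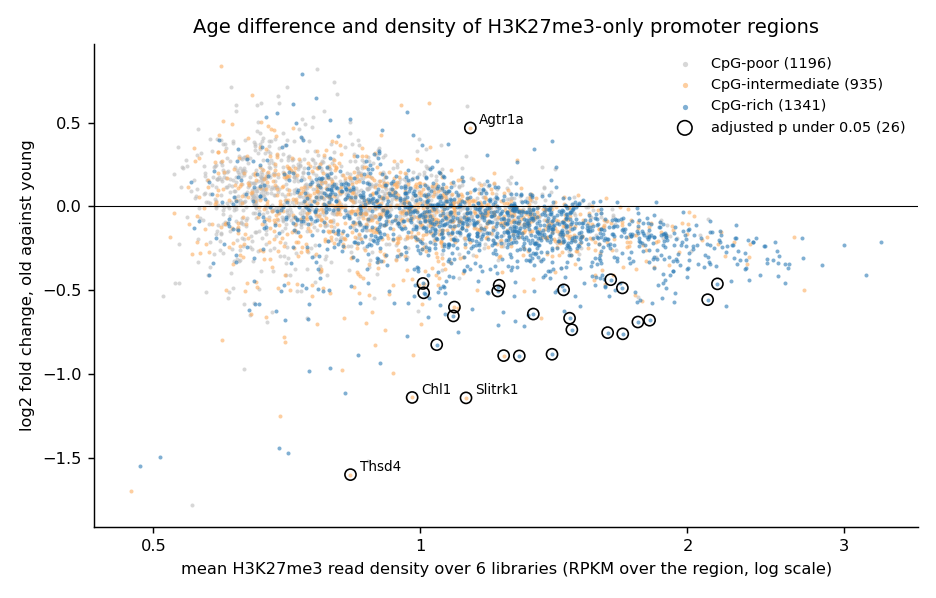
Log2 fold change of old against young (scaled signal, vertical axis) against mean H3K27me3 read density over 6 libraries (log scale) for the 3472 H3K27me3-only promoter regions, coloured by CpG class, with the 26 regions with an adjusted p under 0.05 ringed. CpG-rich regions lie mostly below 0 at high density, and 25 of the 26 ringed regions are lower in old cells.

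Single regions were compared between ages with limma over all 28047 regions, on log2 of the scaled signal plus 0.5. Of the 3472 regions, 25 (0.720%) were lower in old cells at an adjusted p under 0.05, where the percentage over all regions was 0.406, and 1 (0.0288%) was higher, where it was 0.082. At an unadjusted p under 0.05, 474 (13.7%) were lower against 8.73% of all regions, and 117 (3.37%) were higher against 5.16%. All old libraries lay below all young ones in 565 regions (16.3%), against 10.6% of all regions, and above them in 233 (6.71%), against 8.56%. The number of calls rested on the libraries used: it was 2 without young 1, 1 without young 2, 1 without young 3 and 73 without old 2, and it was 24, of which 21 were lower, without old 3. The region of Sstr1 was called in each run without a young library. Every other call was therefore lost without young 2 and without young 3. edgeR on the reads called 75 (69 lower), including all 26, DESeq2 called 17 (16 lower), and the values as deposited gave 174, all lower. For some of the 26 DESeq2 gave no adjusted p, among them Cdh4, Egfem1, Chl1, Opcml, Slitrk1 and Thsd4. The 25 lower regions had fold changes of −1.60 to −0.44, with a median of −0.67. Of the 26 called regions, 19 were CpG-rich, 6 intermediate and 1 CpG-poor, where these classes made up 38.6%, 26.9% and 34.4% of the 3472. In the top quintile of density over all 28047 regions lay 24 of the lower ones, among them all 19 CpG-rich, and the 1 higher one. That quintile held 1738 of the 3472 regions, and the part of density in these counts was not tested. The median distance of the 26 to H3K27ac was 218 kb, against 9.0 kb over all 3472, and 25 of them held a single gene. The rule itself kept all regions off H3K27ac, and distance was not compared at like density or CpG class.

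**Figure D4:**
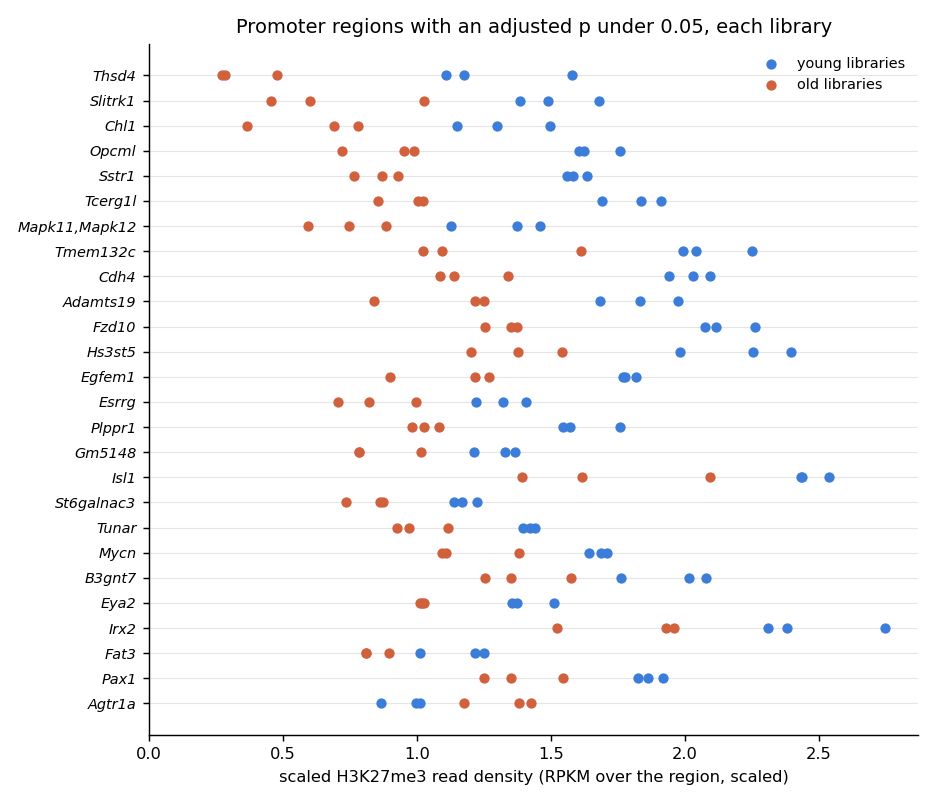
Scaled H3K27me3 read density (RPKM over the region, after scaling of the libraries) in each of the 3 young and 3 old libraries for the 26 H3K27me3-only promoter regions with an adjusted p under 0.05, ordered by fold change. The groups do not overlap in any of them, and Agtr1a, at the bottom, is the one in which the old libraries are higher.

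Among receptors and signalling genes, Sstr1 (chr12:58206501-58224500, 18.0 kb) had densities of 1.59, 1.68 and 1.72 in young 1 to young 3 and 0.914, 0.844 and 0.705 in old 1 to old 3. Every old library lay at or below 0.914 and every young one at or above 1.59, a log2 fold change of −0.89 ± 0.12 (SE; limma, adjusted p = 0.00131), and the call held under each alternative run. Fzd10, a Frizzled receptor for Wnt proteins (17 kb), stood at 2.11, 2.40 and 2.23 in young and 1.35, 1.22 and 1.24 in old libraries (−0.69 ± 0.10, adjusted p = 0.0046). The region shared by Mapk11 and Mapk12, p38-type kinases, fell by 0.83 on the log2 scale. Unlike that of Sstr1, the calls of these regions and of Fzd10 were lost without young 2 and without young 3. Agtr1a, the type 1a angiotensin II receptor (chr13:30320501-30364000, 43.5 kb), was the one region called higher. Its densities were 0.883, 1.06 and 1.06 in young and 1.36, 1.38 and 1.08 in old libraries, close together in young 2, young 3 and old 3, and 0.47 ± 0.10 higher after scaling (adjusted p = 0.045). That call was lost in the values as deposited (limma, adjusted p = 0.12), with a pseudocount of 0.1 (0.058), with a minimum mean of 10 reads (0.0502), without old 1 (0.082) and without any single young library (0.16 to 0.27).

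Among adhesion and surface proteins, Slitrk1, a neuronal transmembrane protein (chr14:108910001-108915000, 5.0 kb), had densities of 1.71, 1.58 and 1.46 in young and 1.01, 0.442 and 0.554 in old libraries, from 53 to 85 and from 8 to 47 reads, with a fold change of −1.14 ± 0.24 (adjusted p = 0.037). Chl1, an adhesion molecule of the L1 family (chr6:103507001-103521000, 14 kb), had 1.32, 1.22 and 1.57 in young and 0.768, 0.355 and 0.635 in old libraries (−1.14 ± 0.21, adjusted p = 0.028). Opcml, an IgLON adhesion protein (chr9:28399501-28407000, 7.5 kb), had 1.64, 1.86 and 1.71 against 0.975, 0.699 and 0.875 (−0.89 ± 0.16, adjusted p = 0.022). In all 3 the groups stood well apart, yet each call was lost without any single young library (adjusted p of 0.096 to 0.25), and that of Slitrk1 also without old 3 (0.058). Cdh4 had densities of 2.07, 2.06 and 2.20 in young and 1.32, 1.10 and 1.00 in old libraries (−0.75 ± 0.15, adjusted p = 0.028). The call of Cdh4 was likewise lost without young 2 and without young 3. Another H3K27me3-only promoter region of Cdh4 had a log2 fold change of −0.06 and was not called. Fat3, a giant atypical cadherin, fell by 0.46 on the log2 scale and Plppr1, a phosphatase-related membrane protein of neurons, by 0.64.

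Transcription regulators were called in 6 lower regions. Isl1 (chr13:116289501-116320500, 31.0 kb) had densities of 2.48, 2.69 and 2.56 in young and 2.06, 1.57 and 1.28 in old libraries, a fold change of −0.56 ± 0.12 (adjusted p = 0.039). Irx2 (35.5 kb) had 2.42, 2.45 and 2.89 against 1.93, 1.87 and 1.40 (−0.46 ± 0.10, adjusted p = 0.049), and Pax1, a paired-box regulator of the vertebral column and thymus, 1.86, 2.04 and 1.96 against 1.52, 1.21 and 1.24 (−0.44 ± 0.10, adjusted p = 0.045). In each of these, the lowest young library lay above the highest old one. With cyclic loess scaling the call of Pax1 was lost (adjusted p = 0.058), as was that of Fat3 (0.055). Mycn, a member of the Myc family, fell by 0.50 on the log2 scale, Esrrg, an orphan nuclear receptor, by 0.65, and Eya2 by 0.47. The calls of all 6 regulators were lost without young 2 and without young 3.

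The largest fall among the called regions was over Thsd4, an extracellular microfibril protein (chr9:60512001-60514000). That region was the shortest called, at 2.0 kb, and had 32, 22 and 18 reads in young and 5, 2 and 6 in old libraries, with densities of 1.61, 1.17 and 1.24 and of 0.269, 0.276 and 0.438. Its fold change was −1.60 ± 0.33 (adjusted p = 0.032), and the call was lost with cyclic loess scaling (adjusted p = 0.063), without old 1 (0.057) and without any single young library (0.15 to 0.26). Enzymes that build or modify sugar chains made up a further 3, Hs3st5 (heparan sulfate 3-O-sulfotransferase 5), which fell by 0.68 on the log2 scale, St6galnac3 (a sialyltransferase), by 0.52, and B3gnt7 (an N-acetylglucosaminyltransferase), by 0.49. The remaining called regions were Adamts19 (a secreted protease of the ADAMTS family), which fell by 0.74, Tcerg1l by 0.88, Tmem132c by 0.76, Egfem1 by 0.67, Gm5148 by 0.60 and Tunar by 0.51. Apart from Sstr1, Chl1, Slitrk1, Opcml, Thsd4 and Agtr1a, the called regions fall outside the naming rule and were named, and all were grouped by function, after their values were seen.

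Beside Agtr1a, the 2 regions with the smallest unadjusted p among those higher in old cells held chemosensory receptors and did not pass the limma test. The region of Olfr13 and Olfr437 (25.5 kb) had densities of 0.532, 0.427 and 0.593 in young and 0.666, 0.758 and 0.744 in old libraries (0.61 ± 0.14, adjusted p = 0.061). Vmn1r54, a vomeronasal receptor (53.5 kb), had 0.953, 1.01 and 0.928 against 1.17, 1.20 and 1.06 (0.37 ± 0.09, adjusted p = 0.068). In both the old libraries lay above all young ones, and both were CpG-poor. The region of Olfr13 and Olfr437 passed with edgeR (adjusted p = 0.023) and, with limma, without old 2 (0.035), and Vmn1r54 passed with edgeR (0.033) and with cyclic loess scaling (0.039).

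Read out by gene list, most lists had medians below 0, and olfactory receptors were above it after scaling but below it, at −0.04, in the values as deposited. The counts at an unadjusted p under 0.05 stand beside 13.7% lower and 3.37% higher among the 3472 regions, and 8.73% and 5.16% among all regions. Beside a median log2 fold change of −0.05 over all 3472 regions, the 47 regions of homeobox regulators other than Hox had a median of −0.21, with 46 lower, 3 called lower (Isl1, Irx2 and Pax1), and 23 (48.9%) lower against 0 higher at that p. Basic helix-loop-helix lineage regulators (23 regions) had −0.23, with 13 (56.5%) lower and 0 higher, and Sox, Gata, Fox, T-box and Zic regulators (23) had −0.17, with 10 (43.5%) and 0. Without old 3 these 3 medians were −0.12, −0.14 and −0.08. No region of the last 2 lists was called. These lists were also dense and CpG-rich, with median densities of 1.89, 1.67 and 1.68 against 0.973 and with 74.5%, 69.6% and 87.0% of regions CpG-rich against 38.6%, and the part of density in their medians was not tested.

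Cadherins and unclustered protocadherins (16 regions) had a median of −0.23 with 7 (43.8%) lower and 0 higher at an unadjusted p under 0.05. In that list 1 region was called (the Cdh4 region at −0.75). Wnt, Bmp, Gdf and Fgf ligands (16) had −0.21 with 5 (31.2%) and 0. Voltage-gated ion channels (49) had −0.15 with 11 (22.4%) and 0, skeletal and cardiac muscle genes (17) −0.15 with 5 (29.4%) and 0, and neurotransmitter receptors (55) −0.10 with 17 (30.9%) and 0. Without old 3 the median was −0.13 for cadherins, −0.06 for muscle genes and −0.03 for the 5 ribosomal protein regions. Blood and endothelial genes (17) had −0.09 with 2 (11.8%) and 0, epithelial genes (17) −0.08 with 2 (11.8%) and 0, and liver, pancreas and gut genes (15) −0.02 with 5 (33.3%) lower and 2 (13.3%) higher, and without old 3 the medians of these 3 lists turned to 0.01. The 5 ribosomal protein regions had −0.13 with 0 and 0, and Nes had −0.40 (adjusted p = 0.14). The 89 olfactory receptor regions had a median of 0.08, which turned to −0.04 in the values as deposited, with 2 (2.25%) lower and 5 (5.62%) higher. Only 4.49% of them were CpG-rich, and their median density was 0.744. Apart from the 4 regions named here, no region of any list was called.

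**Figure D5:**
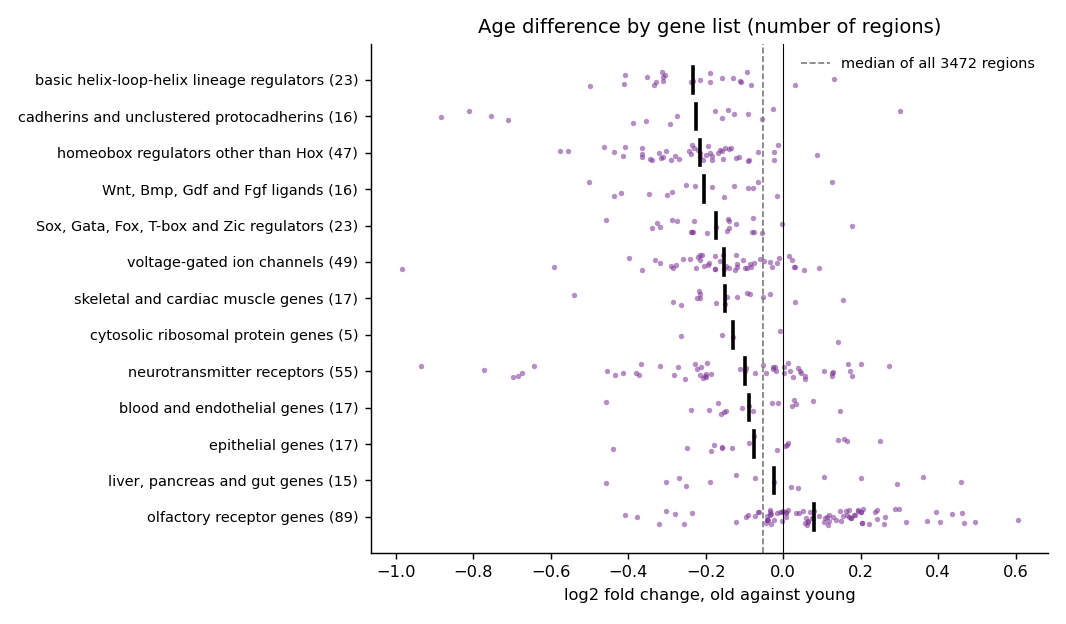
Log2 fold change of old against young (scaled signal, horizontal axis) of each H3K27me3-only promoter region by gene list, with the number of regions in parentheses. Lists with fewer than 5 regions (MSC markers, with Nes alone) are not plotted. Black bars are the medians of the lists plotted, from −0.23 for basic helix-loop-helix lineage regulators to 0.08 for olfactory receptor genes, and the dashed line is the median of all 3472 regions (−0.05).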

How the data were processed

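CUT&RUN for H3K27me3 and H3K27ac was done in MSCs of young and old mice, with 12 libraries in all and 3 per mark and age. Submitters' processing notes name Bowtie2, Picard and mm10 (GRCm38); versions, the region caller and its threshold are not given in the sources used here. Per the labels the deposited tables hold RPKM, but the deposited signal was not divided by region length: in every library all values were whole multiples of 1 step (tolerance 1e-06), which equals 1 read over a constant 0.5 kb. Reads and library totals were recovered from that step, and density was computed per kb of region.

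TSSs were those of protein-coding transcripts of the GENCODE basic annotation for mm10. Levels were compared over libraries with two-sided exact permutation tests, where 3 against 3 cannot go below 0.10. Regions were compared with limma 3.58.1 (trend and robust) on log2 of the signal scaled by relative log expression plus a pseudocount of 0.5, with Benjamini-Hochberg adjustment over all 28047 regions, and all regions entered the fit. edgeR 4.0.16 and DESeq2 1.42.0 were run on the recovered reads. The main limma, edgeR, DESeq2 and cyclic loess fits were tried on simulated reads, and the other alternative settings were not. The simulated reads had a fixed dispersion and no shift of a whole library. Sign-flip tests between classes and cyclic loess scaling were added after the data were seen. The regions, gene lists and tests were chosen with earlier results of these data known. Named regions were, per direction, up to 5 called regions of largest fold change without overlap of the groups (filled to 3 by smallest p), the 6 densest, the 2 densest genes per list, the 3 densest CpG-poor regions and the densest on each side of each length limit. 15 gene lists were used. DESeq2 gave no adjusted p for some regions, and these were left out of its counts. Among them were called regions such as those of Cdh4 and Egfem1, with means of 92.2 and 114 reads.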

Additional observations from a re-analysis of the deposited data

How the results depend on the processing

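The number of H3K27me3-only promoter regions called between ages (26, of which 25 lower) changed most with scaling, tool and library. It was 174 in the values as deposited, 75 with edgeR and TMM, 17 with DESeq2, 17 with a pseudocount of 0.1, and 1 to 73 when leaving out 1 library at a time. With a pseudocount of 2 (34), a minimum mean of 10 reads (21), cyclic loess (24, of which 22 lower and 23 shared with the 26), promoter windows of 0.5 and 5 kb (25 and 29) and no H3K27ac region within 5 kb (24), it stayed within 1.5 times. Replicate numbers are shared by the age groups, but libraries with the same number did not deviate together (correlations of 0.04, 0.06 and −0.09), and not every library correlated best with its own number, so they were not taken as pairs; with the replicate block, 52 regions were called (48 lower), all 26 among them, and Atoh1 (adjusted p = 0.042) and the region of Olfr13 and Olfr437 (0.036) were called too. The excess over promoter regions with both marks, −0.02 from young to old, was 0.0072 with a promoter window of 5 kb, where regions further from a TSS join both classes. The other 5 level differences kept their negative sign under each alternative. The CpG difference was not run with a window of 5 kb, since the CpG class rests on 1 kb. Depth limits the short regions most: old 2 had 3622108 reads.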
